A study of Hydra vulgaris with 12 samples.

Results

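Of 38747 transcripts of Hydra vulgaris, a freshwater polyp, 14 were rich in capless ends and in Hyli-bound sense reads in wild-type animals. They had lower levels of both after colchicine and stayed under a set limit on Hywi-bound antisense reads in both conditions. They were chosen on these measured values. A transcript had to reach 100 CPM (counts per 1000000 counts of its column) in the wild-type degradome and to be at least 8 times higher there than after colchicine. It also had to reach 50 CPM in the wild-type Hyli sense reads, to be at least 4 times higher there than after colchicine, and to stay under 5 Hywi antisense CPM in both conditions. Both ratios were taken after adding 1 CPM to each value. The lower values after colchicine are therefore a description and carry no test. Under the limit, the median Hywi antisense level of the 14 was 0.673 CPM in wild type and 0.208 CPM after colchicine. Over all transcripts it was 0.0569 and 0.241 CPM.

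Hydra makes a pair of PIWI proteins, Hywi and Hyli, which carry short RNAs known as piRNAs. In the amplification cycle known as ping-pong, antisense piRNAs on one PIWI protein guide the cutting of a transcript, and pieces of the cut transcript become sense piRNAs on the other. Hywi is known for antisense and Hyli for sense piRNAs. Degradome sequencing ligates an adapter to poly(A)-selected RNA that has lost its cap, so it reads cut transcripts together with those in ordinary decay. Hydra has epithelial stem cells and interstitial stem cells, and the latter give rise to nerve cells, stinging cells, gland cells and germ cells.

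All animals were of the AEP strain and were cultured at 18 °C. The degradome libraries came from 20 animals and the Hyli and Hywi immunoprecipitates (IP) from 225 animals each, with 1 library per condition, wild type or treated with colchicine. Colchicine makes the animals epithelial by removing interstitial cells, and the treated animals also carried a cnnos1::GFP transgene that the wild-type animals lacked, so treatment and line cannot be told apart. The mRNA libraries, 3 per group, were made from 10 whole animals each at day 4 after hatching. In the knockdown group a transgene of the hywi RNAi-1 line drove a hairpin directed at hywi in the epithelial stem cells, and the control group were siblings without it. In whole animals, fewer cells of a type and less RNA per cell cannot be told apart. No gene name is paired with a transcript name in the files, and 0 of the 38747 names matched the RefSeq gene table, so the cell types left after colchicine, the knockdown of hywi itself and the functions of the 14 transcripts were not analysed here.

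The mRNA libraries held 22.2 to 27.6 M counts (M, 1000000) and the IP columns 2.72 to 28.8 M. The degradome libraries were small, with 765341 counts in wild type and 176897 after colchicine. A count of 3, used as the floor, was 3.92 CPM in the former and 17.0 CPM in the latter. Transcript t22393aep, one of the 14, held 25.0% of the wild-type degradome, and t14592aep, which is not among them, held 13.2%. Intervals of ratios and shares are 95% and cover counting error only. They do not cover the scaling by column totals. On that scale the median ratio of colchicine to wild type was 1.62 over 3034 transcripts in the degradome. In Hyli sense reads it was 1.65 over 12475 transcripts. The ratios of the 14 were not adjusted for this.

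The wild-type degradome followed the wild-type Hyli sense reads closely. Over the 1278 transcripts with at least 100 degradome CPM in wild type, the Spearman rho between degradome level and Hyli sense level was 0.79, with Hywi sense level it was 0.42, and with sibling mRNA it was 0.26. Over the 1075 transcripts with that degradome level after colchicine, the same values were 0.30, 0.02 and -0.06. These are descriptions over transcripts that share their libraries and differ in length and mRNA abundance. Whether the wild-type degradome library is independent of the wild-type Hyli library was not tested. The wild-type degradome and Hyli sense levels of the 14 are therefore not treated here as separate measurements. The term capless ends below stands for the degradome reads as deposited.

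The choice began with 1278 transcripts that had at least 100 degradome CPM in wild type. Of these, 463 passed the degradome ratio, 445 also passed the Hyli minimum and 155 also passed the Hyli ratio. The limit on Hywi antisense reads then removed 141 and left the 14. In the 141, the median Hywi antisense level was 89.1 CPM in wild type and 40.8 CPM after colchicine. Most transcripts that passed both ratios were thus at or over the limit, and the 14 are the remainder under it. This was also so without the ratios: of the 1163 transcripts past both wild-type minimums, 64 were under the limit. Carrying Hywi antisense reads is therefore not particular to transcripts with lower values after colchicine. As background, with a minimum of 10 CPM in at least 1 of the compared libraries, 28.1% of 7975 were at least 8 times lower after colchicine in the degradome, and 24.7% at least 8 times higher. In the Hyli sense reads, 19.4% of 6057 were at least 4 times lower and 23.8% at least 4 times higher. The minimum of 10 CPM is under the floor of 17.0 CPM in the treated degradome, so the degradome shares include transcripts too scarce to be measured there.

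Several members stood close to a threshold. Transcript t5162aep, with 105.8 degradome CPM, was just inside the minimum and t36396aep, with 88.8 CPM, just outside. For the degradome ratio, t31786aep was inside at 9.38 and t10266aep outside at 7.55. For the Hyli ratio, t5162aep was inside at 4.34 and t20135aep outside at 3.92. The larger of the Hywi antisense values was 4.33 CPM in t32966aep, inside, and 5.20 CPM in t29521aep, outside. No transcript failed on the Hyli minimum alone (0).

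Some estimated counts were not whole, as when a read that matches several transcripts is shared out among them. Transcripts t6399aep, t34746aep, t8940aep and t5162aep had whole values in all 6 sense columns of the degradome and the IPs. In t31786aep, t24714aep and t32966aep all 6 values were not whole, so reads of similar transcripts may be mixed in them and the values are uncertain. The others had between 1 and 4 values that were not whole. Transcript lengths were not used here, so levels are compared between libraries for the same transcript.

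The capless ends of t22393aep stood apart from those of all other members. It had 191412 counts (250100 CPM) in the wild-type degradome and 7 counts (39.6 CPM) after colchicine, a ratio of 6320 (interval 3067 to 15720). Its share of the library went from 25.0% to 0.00396%. No other transcript of the whole series had as many capless ends in wild type.

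The next 3 members had 655 to 1940 CPM in the wild-type degradome. Transcript t17095aep went from 1485 counts (1940 CPM) to 4 counts (22.6 CPM), a ratio of 85.8 (33.4 to 315.3). Transcript t34371aep went from 1420 counts (1856 CPM) to 4 counts (22.6 CPM), a ratio of 82.1 (31.98 to 301.6). Transcript t6399aep went from 501 counts (655 CPM) to 6 counts (33.9 CPM), a ratio of 19.3 (8.80 to 52.8). These are the members, beside t22393aep, whose lower number of capless ends rests on most reads.

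The remaining 10 members had 105.8 to 284.8 CPM in the wild-type degradome, which is 81 to 218 counts. After colchicine, t14879aep, t753aep, t8940aep and t5162aep had 0 counts. Against the floor of 3 treated counts, the ratios were 13.3 in t14879aep, 12.5 in t753aep, 7.32 in t8940aep and 6.24 in t5162aep. The lower limits of their intervals were smaller, at 10.7, 10.1, 5.84 and 4.96. The treated library is so shallow that both values of t8940aep and of t5162aep lie under the ratio of 8 that was asked for.

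Transcripts t34746aep, t17538aep, t24714aep and t32966aep had between 0.5 and 1.78 counts after colchicine. Their ratios were 48.5 (lower limit 8.62), 46.9 (4.92), 12.2 (2.91) and 10.7 (2.68). Transcripts t5071aep and t31786aep had 5 and 3.42 counts after colchicine, with ratios of 10.1 (4.25 to 31.3) and 9.82 (3.50 to 42.1). Over the 14, the lower limit of the degradome ratio reached 8 in 7: t22393aep, t17095aep, t34371aep, t6399aep, t34746aep, t14879aep and t753aep. For the other 7 the interval reached below a ratio of 8, so at this depth and on this scaling their place in the choice is uncertain.

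The Hyli sense reads, short RNAs from the transcript's own strand bound by Hyli, were counted in deeper libraries. The largest ratios of wild type to colchicine were in t34746aep, from 608.9 to 12.1 CPM, a ratio of 50.2 (40.4 to 63.3), and t17095aep, from 4046 to 105.7 CPM, a ratio of 38.3 (35.6 to 41.3). Transcript t14879aep went from 315.5 to 10.5 CPM, a ratio of 30.1 (23.8 to 38.7). Transcript t22393aep went from 1815 to 85.3 CPM, a ratio of 21.3 (19.6 to 23.1), far less than the ratio of its capless ends.

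The next group of Hyli ratios lay between 8.19 and 19.8. It held t31786aep (389.3 to 19.7 CPM), t753aep (290.8 to 22.0 CPM), t34371aep (3522 to 301.2 CPM), t8940aep (310.7 to 34.7 CPM) and t24714aep (145.7 to 17.8 CPM). The lowest ratios, between 4.42 and 7.36, were those of t32966aep (231.1 to 31.4 CPM), t5071aep (246.7 to 41.5 CPM), t17538aep (280.0 to 49.0 CPM), t6399aep (1411 to 252.2 CPM) and t5162aep (180.8 to 40.9 CPM). Hyli sense reads were left in all 14, and the fewest after colchicine were 70 counts, in t14879aep. The lower limit of the Hyli ratio was over 4 in 13 of 14, and in t5162aep it was 3.92.

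**Figure D1:**
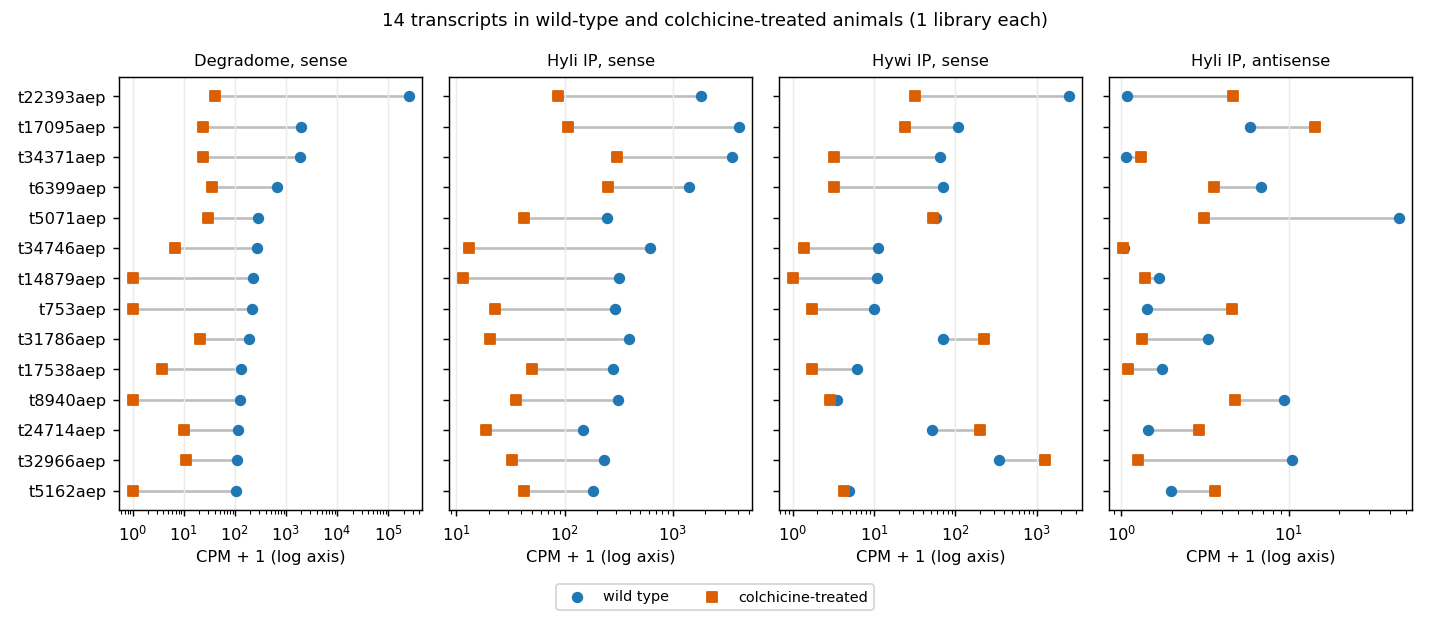
Level of each of the 14 transcripts (rows) in wild-type animals (blue circles) and colchicine-treated animals (orange squares), as CPM + 1 on a log axis, for degradome sense, Hyli sense, Hywi sense and Hyli antisense counts, with 1 library per point. The first 2 panels show the lower values that chose the transcripts, and in the Hywi sense panel t31786aep, t24714aep and t32966aep are higher after colchicine.

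Among transcripts with the same wild-type minimums and the same limit on Hywi antisense reads, a minority passed both ratios. There were 64 of them: the 14, 19 that passed the degradome ratio alone, 5 that passed the Hyli ratio alone, and 26 that passed neither. The 50 that did not pass both are called retained below. Their median degradome level was 172.5 CPM in wild type and 87.6 CPM after colchicine, and their median Hyli sense level was 172.8 and 146.7 CPM. In the 14 these medians were 218.5 and 9.59 CPM for the degradome and 313.1 and 37.8 CPM for Hyli sense reads.

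**Figure D2:**
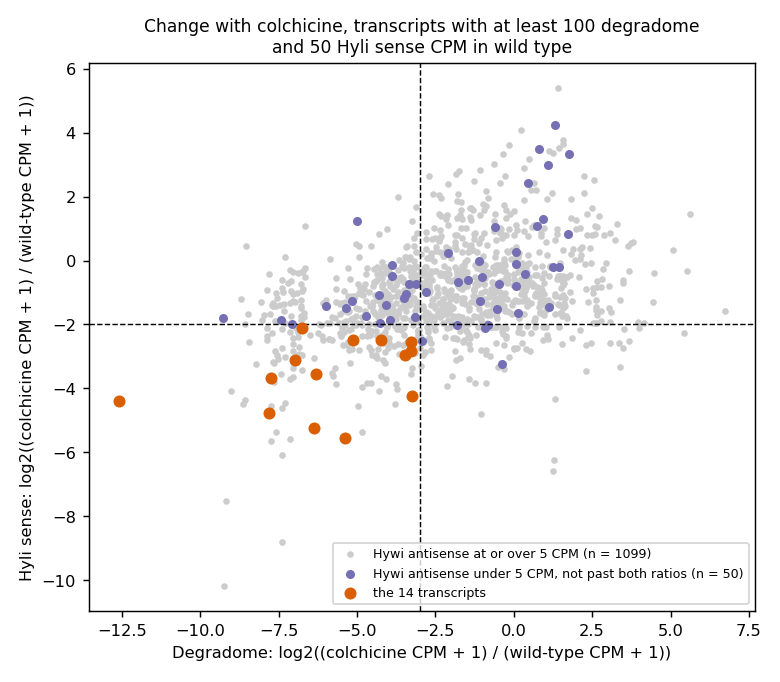
Change with colchicine in degradome (horizontal) and Hyli sense reads (vertical), as log2 ratios of CPM + 1, for the 1163 transcripts with at least 100 degradome CPM and 50 Hyli sense CPM in wild type. Dashed lines mark the ratios of 8 and 4 that chose the 14 transcripts (orange), which lie in the lower left corner, with t22393aep farthest left among all 1163.

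In wild-type animals the capless ends and the Hyli sense reads of 13 members stood in a narrow ratio to each other, as did those of most abundant transcripts. Hyli sense CPM divided by degradome CPM was 0.866 to 2.50 in these 13, and the length of a transcript drops out of this ratio. Over the 1163 transcripts past both wild-type minimums the median ratio was 1.88, with quartiles of 1.54 and 2.18. Among the 14, t22393aep was the exception, with a ratio of 0.00726. Of the 1163 transcripts 1 was lower, t14592aep, with 873.1 Hyli sense CPM and 131595 degradome CPM. Across the 14, wild-type degradome and Hyli sense levels had a Spearman rho of 0.85 (0.83 over the 13 without t22393aep), which is a description over transcripts that share the same libraries and differ in length.

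The ratio was spread more widely after colchicine. Over the 623 transcripts with at least 100 degradome CPM and 50 Hyli sense CPM in the treated animals, the median ratio was 0.796, with quartiles of 0.359 and 2.13, and the Spearman rho between the levels was 0.19, against 0.86 over the 1163 in wild type. None of the 14 reached that degradome level after colchicine.

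**Figure D3:**
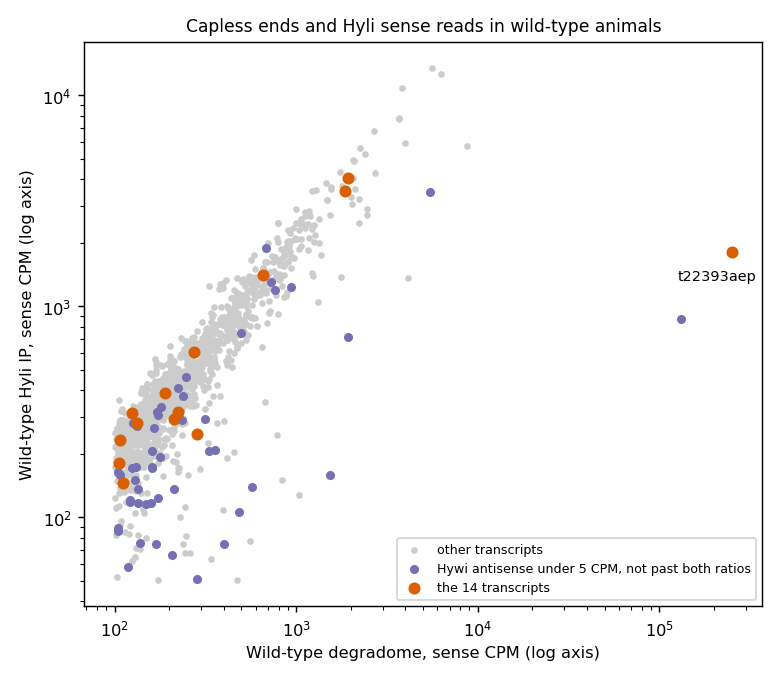
Wild-type Hyli sense CPM (vertical, log axis) against wild-type degradome CPM (horizontal, log axis) for the 1163 transcripts with at least 100 and 50 CPM. Of the 14 transcripts (orange), 13 lie in or near the band formed by the other transcripts and t22393aep lies far to its right, at 250100 degradome CPM. Transcript t14592aep, one of the 50 comparison transcripts, also lies far to its right, at 131595 degradome CPM.

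The Hywi sense reads, short RNAs of the transcript's own strand bound by the other PIWI protein, were not part of the choice but come from the same contrast of conditions, so they are given without a test. They were lower after colchicine in 11 of the 14 and higher in 3. In 9 members the level was at least 10 CPM in wild type or after colchicine, and of these 5 were at least 4 times lower on the CPM + 1 scale and 0 at least 4 times higher. Over all 7037 transcripts with that minimum, 30.2% were lower and 14.3% higher.

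The largest Hywi sense ratio was again that of t22393aep, with 6927 counts (2464 CPM) in wild type and 84 counts (30.9 CPM) after colchicine, a ratio of 79.9 (64.4 to 100.2). Its wild-type Hywi sense level was the highest of the 14, followed by 341.4 CPM in t32966aep. Transcript t6399aep went from 68.7 to 2.20 CPM, a ratio of 31.2 (14.1 to 85.9), and t34371aep from 64.4 to 2.20 CPM, a ratio of 29.2 (13.2 to 80.7). Transcript t17095aep went from 105.6 to 23.3 CPM, a ratio of 4.53 (3.44 to 6.04). Transcript t34746aep went from 29 counts to 1, a ratio of 28.1 with a lower limit of 4.66. In these 5 members capless ends, Hyli sense reads and Hywi sense reads were all at least 4 times lower after colchicine.

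Transcript t5071aep had a Hywi sense level of 56.7 CPM in wild type and 52.3 CPM after colchicine, a ratio of 1.08 (0.859 to 1.37), beside a Hyli sense ratio of 5.95. The remaining members t14879aep, t753aep, t17538aep, t8940aep and t5162aep had at most 28 Hywi sense counts in wild type and at most 9 after colchicine. The first 3 of them had 28, 25 and 14.5 counts in wild type and 0, 2 and 2 after colchicine. In t8940aep, with 7 and 5 counts, and in t5162aep, with 11 and 9 counts, a difference was not detectable at this depth.

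In t31786aep, t24714aep and t32966aep the Hywi sense level was higher after colchicine, while the Hyli sense level was lower. Transcript t32966aep had 341.4 CPM (960 counts) in wild type and 1261 CPM (3434 counts) after colchicine, 3.69 times higher (3.44 to 3.97). Transcript t31786aep had 68.4 CPM in wild type and 221.0 CPM after colchicine, 3.23 times higher (2.74 to 3.82). Transcript t24714aep had 49.9 CPM in wild type and 197.5 CPM after colchicine, 3.96 times higher (3.28 to 4.80). Hywi sense CPM over Hyli sense CPM was 0.176, 0.342 and 1.48 in wild type for t31786aep, t24714aep and t32966aep. After colchicine it was 11.2, 11.1 and 40.2. Each column was scaled by its own total, in wild type 2.81 M Hywi and 28.8 M Hyli sense counts. These ratios therefore do not compare numbers of reads between the IPs. In counts, t32966aep had 960 Hywi and 6651 Hyli sense reads in wild type, and 3434 and 210 after colchicine. Transcripts t31786aep, t24714aep and t32966aep are also the 3 members whose values were not whole in any of the 6 sense columns. The part of reads shared among transcripts in these higher values was not tested.

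Hyli antisense reads were scarce on the 14 transcripts. In wild type they ranged from 0.0427 to 44.1 CPM with a median of 0.870 CPM, and after colchicine from 0.0208 to 13.4 CPM with a median of 2.02 CPM. They were higher after colchicine in 6 members and lower in 8, but 6 of the values after colchicine and 3 of those in wild type were at or under 3 counts. With at least 10 CPM in either library there were 2 members, of which t5071aep went from 517 to 13 counts, a ratio of 20.9 (12.1 to 39.5), and t17095aep went from 57.2 to 82.5 counts, 2.75 times higher in CPM (1.94 to 3.92). Of these 2, 1 was at least 4 times lower and 0 at least 4 times higher, against 18.7% and 29% of 7615 transcripts.

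Summed over the 14, the small RNAs were almost all of the sense strand in both IPs. In the Hyli IP, 99.8% of their counts were sense in wild type (Wilson interval 99.75 to 99.78%) and 96.9% after colchicine (96.5 to 97.3%), against 71.1% and 52.0% over all transcripts. In the Hywi IP, whose counts over all transcripts were 12.6% sense in wild type and 14.1% after colchicine, the 14 were 96.7% sense (96.3 to 97.0%) and 96.5% sense (96.0 to 97.0%). Transcript t22393aep gave 75.6% of the Hywi sense counts of the 14 in wild type and 1.72% after colchicine. Transcripts t31786aep, t24714aep and t32966aep, whose values were not whole, together gave 14.1% and 93.4%. The median sense share in the Hywi IP over the 14 was 86.2% in wild type and 83.0% after colchicine. The limit on Hywi antisense reads and the minimum on Hyli sense reads fix most of this. Within the 14 the lowest sense share in the wild-type Hywi IP was 11.4%, in t8940aep, with 7 sense and 54.2 antisense counts. In the wild-type Hyli IP every one of the 14 was over 90% sense, and the lowest was t5071aep with 93.2%.

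The mRNA libraries were not used to choose the transcripts. In wild-type siblings, 13 of the 14 had a mean of at least 1 CPM. The exception was t34746aep, with 2, 1 and 0 counts in the 3 siblings and 0 counts in each of the 3 knockdown libraries, although it had 210 capless counts and 17523 Hyli sense counts in wild-type animals. Transcript t5071aep had 1603 ± 292.6 CPM (SD, n = 3), t753aep 226.7 ± 15.9 CPM and t22393aep 108.9 ± 57.5 CPM. Transcripts t17095aep and t5162aep had 32.9 ± 9.07 and 24.1 ± 1.27 CPM. The other 8 had means of 1.14 to 7.56 CPM. The median over the 14 was 6.08 CPM, beside 43.5 CPM over the 50 comparison transcripts and 0.355 CPM over all transcripts. These medians are per transcript and not per length.

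Capless ends per unit of mRNA differed widely within the 14. Wild-type degradome CPM divided by mean sibling mRNA CPM was 0.178 in t5071aep, 0.936 in t753aep and 4.40 in t5162aep, and 16.4 to 116.2 in t8940aep, t32966aep, t24714aep, t17095aep, t31786aep, t14879aep, t6399aep and t17538aep. It was 525.7 in t34371aep and 2296 in t22393aep. In t34746aep it was 6521, but its mRNA mean of 0.0421 CPM is under the floor of 3 counts. The degradome and the mRNA came from different animals, and the labels give an age for the latter alone. Over the 1278 transcripts with at least 100 wild-type degradome CPM the median of this ratio was 98.3, with quartiles of 43.1 and 225.3. It was higher than in t22393aep in 22 of them, all 22 with sibling mRNA under 1 CPM, as in 291 of the 1278. Over the 987 with at least 1 CPM the median was 69.1, with quartiles of 31.7 and 127.4, and 0 were higher than t22393aep.

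In the hywi knockdown no mRNA of the 14 passed the threshold. Of the 13 that passed the filter on low counts, 0 were called higher and 0 lower at the adjusted p threshold of 0.05 (edgeR's quasi-likelihood test, Benjamini-Hochberg over 19683 transcripts), against 0% of all tested transcripts in each direction. With the replicate number as a block, 1.17% of all tested transcripts were higher and 0.0914% lower, and of the 13 again 0 and 0. DESeq2 called 0 of the 13 as well. In edgeR's fit without the block, at an unadjusted p under 0.05, 0 were higher and 1, t753aep, was lower, beside 2.93% and 0.716% of all tested. The log2 fold change was above 0 in 6 and below 0 in 7, with a median of -0.03, beside 0.02 over all tested transcripts.

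Transcript t753aep had 229.4, 209.6 and 241.2 CPM in wild-type siblings 1 to 3 and 208.2, 196.2 and 188.4 CPM in knockdown libraries 1 to 3. Its groups did not overlap, and all 3 pairs of the same number were lower in the knockdown. The log2 fold change was -0.29 (SE 0.12), and edgeR's adjusted p was 0.875 (0.276 with the block), so it did not pass. The most abundant of the 14 mRNAs, t5071aep, had 1312, 1599 and 1898 CPM in siblings and 1262, 1570 and 1344 CPM in the knockdown. Its groups overlapped, all 3 pairs of the same number were lower in the knockdown, and the log2 fold change was -0.29 (interval -0.75 to 0.16). With the block it was -0.28 (interval -0.55 to -0.0006), and edgeR's adjusted p was 0.363, so it did not pass. These 2 transcripts also had the fewest capless ends per unit of mRNA.

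On the TMM-scaled log2 scale the groups did not overlap for t753aep and t6399aep, both lower, which is 2 of 13, beside 3.85% of all tested transcripts. On plain CPM t6399aep did overlap, with 6.92, 6.90 and 6.59 CPM in siblings and 6.69, 4.73 and 6.77 CPM in the knockdown. Its log2 fold change was -0.25 (interval -0.63 to 0.13). Over the 13, 4 were lower in all 3 pairs and 0 were higher, beside 20.3% and 20.1% of all tested transcripts.

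The mRNA of t22393aep varied more between libraries of one group than between the groups. Siblings 1 to 3 had 161.8, 117.2 and 47.7 CPM, and knockdown libraries 1 to 3 had 57.5, 301.7 and 46.6 CPM. The high value was in knockdown 2 and the groups overlapped. The log2 fold change was 0.29 with an interval of -1.34 to 1.91, but it was -1.15 without knockdown 2, -0.060 without sibling 3 and -0.13 with the replicate block, so no direction can be given. Transcript t32966aep also varied, with 7.55, 5.94 and 2.58 CPM in siblings and 9.76, 4.89 and 7.88 CPM in the knockdown, a log2 fold change of 0.42 (-0.39 to 1.22). This was the highest of the 13.

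The other 8 tested members had log2 fold changes from -0.18 to 0.13. The tightest estimate was that of t5162aep, with 22.8, 25.3 and 24.1 CPM in siblings, 23.3, 25.3 and 27.9 CPM in the knockdown, and an interval of -0.30 to 0.30. For t17095aep the interval was -0.63 to 0.28 and for t34371aep -0.47 to 0.71. Changes within these intervals could not be told from 0 with 3 libraries a group, and the p-values measure the spread between these libraries only.

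**Figure D4:**
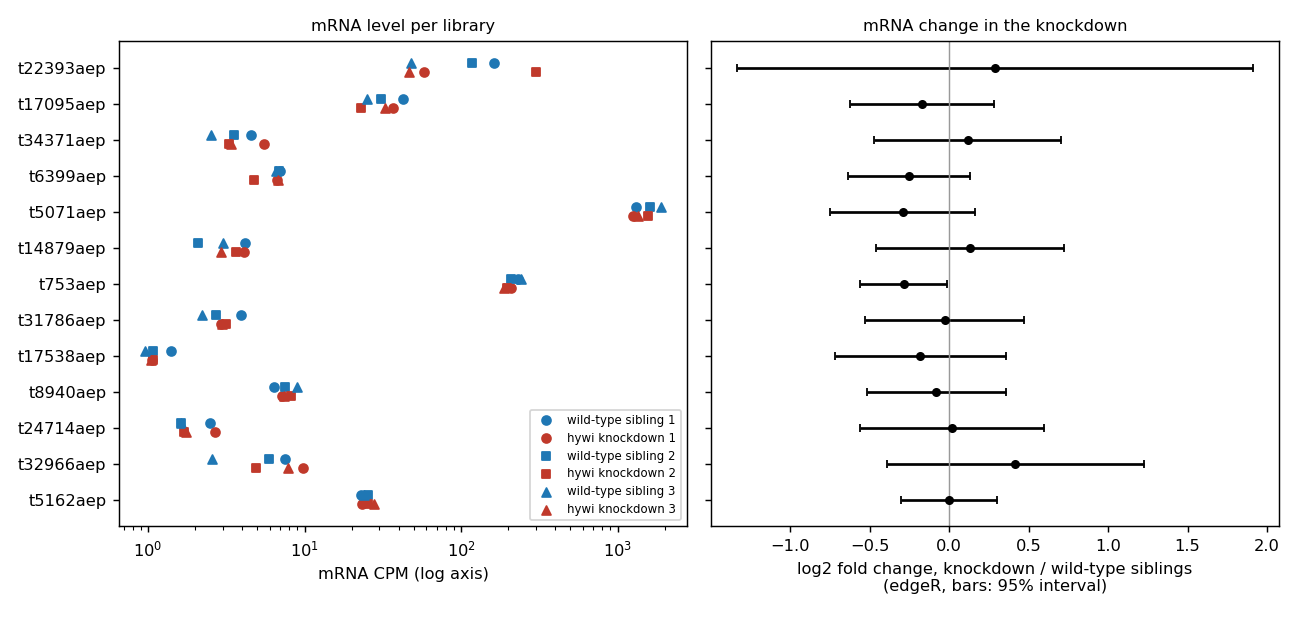
Left, mRNA CPM (log axis) of 13 of the 14 transcripts in each of the 3 wild-type sibling (blue) and 3 hywi knockdown (red) libraries, with the replicate number as the symbol; t34746aep, with at most 2 counts in a library, is not drawn. Right, the log2 fold change of the knockdown over siblings from edgeR with its 95% interval, which for t22393aep runs from -1.34 to 1.91.

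The mirror image of the choice, with the conditions exchanged, gave 21 transcripts with more capless ends and Hyli sense reads after colchicine, called gained here. They and the 50 comparison transcripts are given beside the 14. Of the 21, all 21 passed the mRNA filter, and 0 were called in the fit without the block and 2 higher with it. Of the 49 comparison transcripts tested, 0 were called in either fit. Median mRNA log2 fold changes were 0.17 in the gained, 0.10 in the comparison transcripts and -0.03 in the 14. These groups were all chosen on measured values and no test was made between them.

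Hywi sense reads of these groups are also given without a test. There were 44 comparison transcripts with at least 10 Hywi sense CPM in either library. Of these, 9 were at least 4 times lower after colchicine and 11 at least 4 times higher. Of the 19 gained transcripts with that minimum, 0 were lower and 8 higher. In the 14 the median Hywi sense level was 53.3 CPM in wild type and 2.75 CPM after colchicine. In the comparison transcripts it was 105.6 and 85.3 CPM. The 14 held 0.326% of wild-type Hywi sense counts and 0.180% after colchicine. Without t22393aep the direction of this share was the opposite, with 0.0796% in wild type and 0.177% after colchicine. Transcripts t31786aep, t24714aep and t32966aep, whose values were not whole, gave 93.4% of the Hywi sense counts of the 14 after colchicine. The median Hywi sense level without t22393aep was 49.9 CPM in wild type and 2.20 CPM after colchicine. Of Hyli sense counts the 14 held 1.38% and 0.102%, and 1.198% and 0.0939% without t22393aep.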

How the data were processed

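The 3 tables the authors deposited hold estimated counts per transcript, not normalized, for 38747 transcripts in 16 columns of 12 libraries; 0 columns were left unused. Per the file headers, IP counts are given by strand and degradome counts are sense only. Per the submitters' processing notes, Trimmomatic 0.33, RSEM 1.2.31 and Bowtie 1.1.2 are named for the mRNA libraries and cutadapt, RSEM 1.2.31 and Bowtie for the rest; their settings are not given in the sources used here. The mRNA kit was stranded, per the labels. Counts were scaled to CPM by column totals.

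Estimated mRNA counts were rounded, filtered with filterByExpr, scaled by TMM and compared with edgeR 4.0.16 (R 4.3.3), two-sided, over the whole table; DESeq2 1.42.0 was an alternative. Fits and the choice of transcripts were run on simulated data as a check of the code only. The simulated mRNA counts had no effect of replicate number, so they do not show how the fits perform on these libraries. Ratios between single libraries have Clopper-Pearson type intervals and shares have Wilson intervals (Python 3.11.15, scipy 1.17.1), both with shared reads kept as fractions. The standard error of a log2 fold change was taken from the F statistic.

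Sibling and knockdown libraries of the same number correlated in their deviations from the group mean by 0.62, 0.27 and 0.30, and those of other numbers by at most 0.20, so the numbers were taken to pair them, on this correlation alone. Libraries of one group differed by 14.8 to 50.9 times the sampling variance (chi-square per degree of freedom).

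Members to name were set as the 8 with most wild-type degradome reads, the 4 with most Hyli sense reads and the 4 with most mRNA. The 3 highest and 3 lowest mRNA fold changes, the 3 with most Hywi sense and the 3 with most Hyli antisense reads, and those next to a threshold were added, as was any member that passed the mRNA test. This left out t17538aep, which is given so that all 14 are accounted for. The members, groups and tests were chosen with earlier results of these data known.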

Additional observations from a re-analysis of the deposited data

Results flagged for a closer look

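Transcripts t31786aep, t24714aep and t32966aep moved in opposite directions in the Hywi and Hyli IPs between wild-type and colchicine-treated animals. Their Hywi sense levels were 3.23, 3.96 and 3.69 times higher after colchicine, while their Hyli sense levels were lower, as the choice of the transcripts required. Each IP had 1 library per condition, so the difference was not tested, and all 6 sense values of each of these transcripts were not whole, as when reads are shared out among similar transcripts.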

How the results depend on the processing

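The number of transcripts chosen depended on the settings. It was 14 with a pseudocount of 0.1 CPM and 9 with 10 CPM, 20 with degradome totals taken without the 2 most abundant transcripts, 26 under median-ratio scaling, and 9 with values under 3 counts raised to 3. Ratios of 4 and 2 gave 29, ratios of 16 and 8 gave 7, and Hywi antisense limits of 1 and 20 CPM gave 9 and 32. All 14 were among the 20 and among the 26. Transcripts t24714aep, t32966aep and t5162aep were lost both with the pseudocount of 10 CPM and with the raised values.

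The counts of members called in the mRNA test were 0 and 0 under DESeq2, RLE size factors, no filter, the replicate block and each library left out. The median mRNA log2 fold change was -0.07 with the block and -0.13 to 0.015 with a library left out, above 0 only without wild-type sibling 1. Over the 130 alternative values of single members the smallest adjusted p was 0.276, and 22 had the other sign. With the block, t22393aep was at -0.13 and t5162aep at -0.0011. For t24714aep DESeq2 and RLE size factors gave -0.012, and for t5162aep they gave -0.026 and -0.026, and no filter gave -0.0046. With each library left out in turn, the log2 fold change ranged from -1.15 to 0.69 in t22393aep, -0.31 to 0.015 in t17095aep, -0.13 to 0.29 in t34371aep, -0.10 to 0.35 in t14879aep, -0.17 to 0.18 in t31786aep, -0.22 to 0.092 in t8940aep, -0.19 to 0.19 in t24714aep and -0.092 to 0.092 in t5162aep. The cause was not tested.

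The median Hyli antisense log2 ratio was -0.16, and -1.28 over the 2 members with at least 10 CPM. The Hyli sense share of the members was 99.69% without the member with most Hyli counts and 99.88% as a median over members in wild type, and 95.8% and 96.5% after colchicine. The median Hywi sense log2 ratio, -1.98, lay between -2.41 and -0.66 under its alternatives. Depth limits the treated degradome most.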
